A study of Zea mays with 6 samples.

Results

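Ribonucleotide reductase is encoded in the measured maize gene set by 5 named genes, 3 for the small subunit (RNRS1, GRMZM2G060163; RNRS2, GRMZM2G155546; RNRS3, GRMZM2G323679) and 2 for the large subunit (RNRL1, GRMZM2G304378; RNRL2, GRMZM2G340527). They were picked by gene identifier from the 39448 genes in the deposited tables; the rule uses no measured value, but the family was chosen with earlier results of these data known. RNA was sequenced from endosperm, the storage tissue of the kernel, 10 days after pollination. There were 3 libraries of wild-type maize (WT) and 3 of the floury3 mutant (fl3), described as independent biological replicates, from plants grown in a summer field with no treatment given to either genotype. The sources used here do not give the inbred background or the fl3 allele. The floury3 gene encodes a PLATZ protein, a plant zinc-binding factor, and mutant kernels are soft and opaque.

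Ribonucleotide reductase removes an oxygen from ribonucleotides to make the deoxynucleotides that DNA synthesis needs. The large subunit carries the catalytic site and the sites that sense nucleotide levels, and the small subunit holds the iron-bound radical that starts each reaction, so an active enzyme needs both. In Arabidopsis the small-subunit gene TSO2 and the large-subunit gene CLS8 are known for DNA replication and leaf development, and in rice the large-subunit gene V3 and the small-subunit gene St1 are known for pale leaves. Maize endosperm cells divide in the days after pollination and then copy their DNA without dividing, in endoreduplication, while they fill with starch and storage protein.

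The small-subunit transcripts were redistributed in fl3: RNRS2 rose 7.11-fold from a low level, RNRS1 fell 1.81-fold and RNRS3 fell 1.26-fold. RNRL2, the main large-subunit transcript, differed by 1.16-fold, lower in fl3, and RNRL1 stayed near the lower limit of the tested genes. All values are FPKM (fragments mapped, scaled by gene length and library total), a scale per length on which the genes can be set beside each other. How reads shared by similar genes were handled is unknown, so values, shares and ratios compared between subunit genes carry that uncertainty. The test was limma on log2(FPKM + 1), for genes whose 6 values averaged 1 FPKM or more. "Rose" and "fell" are used of a Benjamini-Hochberg adjusted p under 0.05 over all 17272 tested genes. All 5 subunit genes were tested, and RNRL1 passed that filter narrowly, with 0.888 FPKM as its WT mean and 1.38 FPKM as its fl3 mean.

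RNRS2 had 3.38, 2.72 and 3.82 FPKM in WT replicates 1 to 3, and 22.2, 24.04 and 24.3 FPKM in fl3 replicates 1 to 3. The genotypes were far apart, since the lowest fl3 library stood well above the highest WT library, and the spread within each genotype was small beside that gap. The means were 3.31 ± 0.552 FPKM in WT and 23.5 ± 1.12 FPKM in fl3 (SD, n = 3), with a log2 fold change of 2.52 (SE 0.10, 95% interval 2.29 to 2.74, limma adjusted p = 3.01e-07). In WT, 27.7% of the tested genes had a lower mean FPKM than RNRS2, and in fl3 77.5% had. Only 121 of the 17272 tested genes had a higher log2 fold change, which is 0.701% of them.

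RNRS1 had 88.2, 76.7 and 76.5 FPKM in the WT libraries and 39.5, 46.0 and 47.8 FPKM in the fl3 libraries. All 3 fl3 libraries lay below all 3 WT libraries. Means were 80.5 ± 6.67 FPKM in WT and 44.4 ± 4.39 FPKM in fl3 (SD, n = 3), with a log2 fold change of -0.84 (SE 0.09, 95% interval -1.04 to -0.64, limma adjusted p = 4.57e-05). A deeper fall was found for 964 tested genes, 5.58% of them. RNRS1 was thus the highest of the subunit genes in WT and lost that rank in fl3.

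RNRS3 had 68.1, 70.5 and 74.1 FPKM in the WT libraries and 51.6, 60.9 and 56.5 FPKM in the fl3 libraries. The groups did not overlap, but the gap between them was narrower than for RNRS1. Means were 70.9 ± 3.06 FPKM in WT and 56.3 ± 4.65 FPKM in fl3 (SD, n = 3), with a log2 fold change of -0.33 (SE 0.07, 95% interval -0.49 to -0.17, limma adjusted p = 0.00302). The intervals of RNRS1 and RNRS3 did not overlap, and the difference between their fold changes was not tested.

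RNRL2 had 12.0, 12.8 and 13.1 FPKM in the WT libraries and 11.6, 11.2 and 9.96 FPKM in the fl3 libraries. The highest fl3 library lay just under the lowest WT library. Means were 12.6 ± 0.552 FPKM and 10.9 ± 0.843 FPKM (SD, n = 3), with a log2 fold change of -0.20 (SE 0.07, 95% interval -0.37 to -0.03, limma adjusted p = 0.0419). This call was weak: it was lost without any one of WT replicate 2, WT replicate 3, fl3 replicate 2 or fl3 replicate 3 (limma adjusted p = 0.102, 0.124, 0.0673 and 0.139).

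RNRL1 had 2.25, 0.185 and 0.235 FPKM in the WT libraries and 1.49, 0.732 and 1.92 FPKM in the fl3 libraries. WT replicate 1 stood apart from the other WT libraries and was the highest of all 6, so the groups overlapped. The log2 fold change of 0.47 did not pass (SE 0.37, 95% interval -0.39 to 1.33, limma adjusted p = 0.293), and that interval spans changes in either direction. Without WT replicate 1 the gene fell below the filter. A fit without that library and without the filter, added after the data were seen, gave a log2 fold change of 0.94 with limma adjusted p = 0.0174. The identifier GRMZM2G304378 also matched a second, neighbouring reference gene, hyp1, so reads counted under RNRL1 may belong to either.

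**Figure D1:**
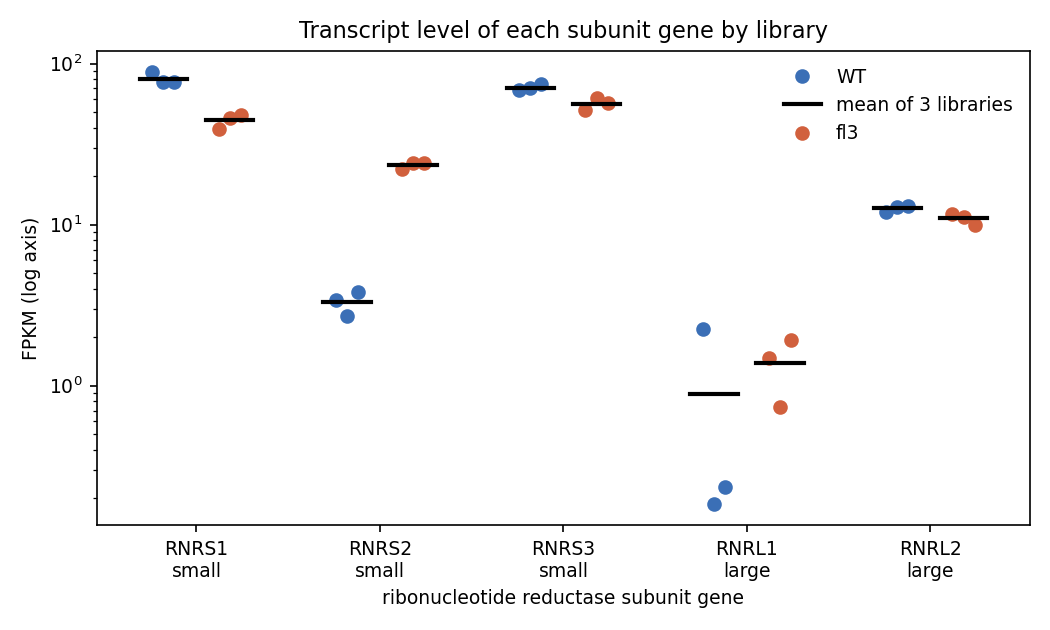
FPKM of each subunit gene in each library on a log axis, WT in blue and fl3 in orange, with a black line at the mean of the 3 libraries. The RNRS2 points move from 2.72 to 3.82 FPKM in WT up to 22.2 to 24.3 FPKM in fl3, while the RNRS1, RNRS3 and RNRL2 points of fl3 sit below those of WT and the RNRL1 points overlap.

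Of the 5 subunit genes 4 were called, against 67.3% of all tested genes, and their groups did not overlap for 4, against 71.7%. The number of calls in the family was therefore near the background. By direction, 1 rose where 43.5% of all tested genes did, and 3 fell where 23.8% did. The median log2 fold change of all tested genes was 0.14, and RNRS2 lay 2.37 above that median while RNRS1, RNRS3 and RNRL2 lay at -0.99, -0.47 and -0.34 relative to it. Median-of-ratios scaling, which brought the median to 0.002, gave log2 fold changes of 2.37, -1.01, -0.49 and -0.35 for RNRS2, RNRS1, RNRS3 and RNRL2, all past the threshold. Quantile normalization gave 2.33, -0.90, -0.39 and -0.35, also all past it. Of all 17272 tested genes 5841 rose and 5758 fell under median-of-ratios scaling, and 5597 rose and 5905 fell under quantile normalization. The shares of 43.5% and 23.8% hold only for values as deposited. The direction of RNRS2, RNRS1, RNRS3 and RNRL2 was the same under each scaling tried.

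**Figure D2:**
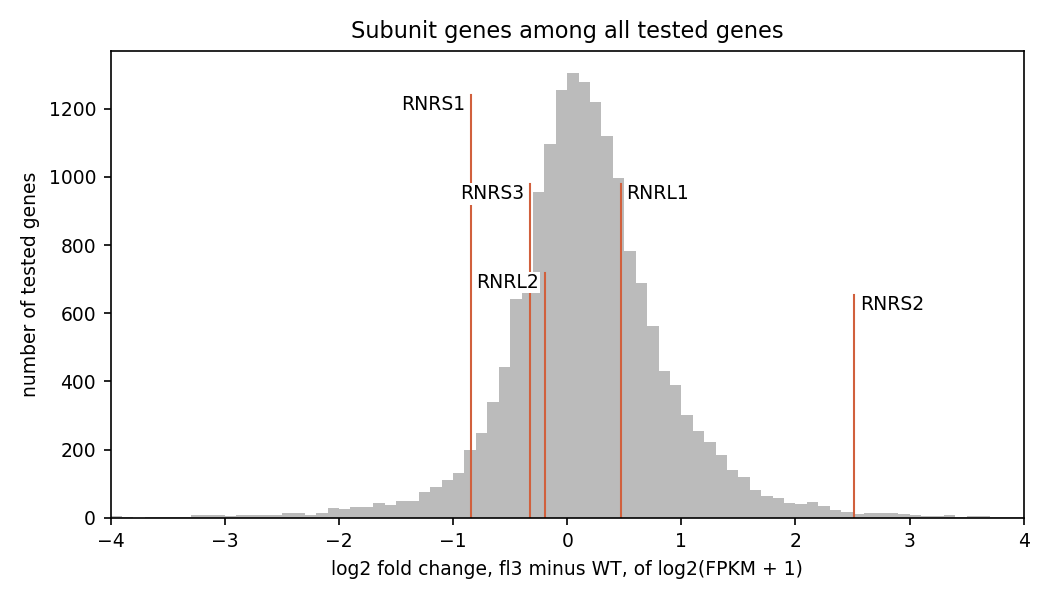
Histogram of the log2 fold change of all tested genes in steps of 0.1, with the 5 subunit genes marked by vertical lines whose heights carry no meaning; 33 genes beyond -4 or 4 are not drawn. RNRS2 at 2.52 lies in the upper tail, RNRS1 at -0.84 on the lower flank, and RNRS3, RNRL2 and RNRL1 in the main body.

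The make-up of the small-subunit pool differed between the genotypes. RNRS2 held 2.12%, 1.82% and 2.47% of the small-subunit FPKM sum in the WT libraries and 19.6%, 18.4% and 18.9% in the fl3 libraries. The share was low in every WT library and high in every fl3 library, at 2.135% ± 0.329 and 19.0% ± 0.628 (SD, n = 3). RNRS1 held 55.2%, 51.2% and 49.5% in WT and 34.9%, 35.1% and 37.2% in fl3, again without overlap, with means of 52.0% ± 2.945 and 35.7% ± 1.297. RNRS3 kept a like share, between 42.65% and 48.0% in WT and between 43.9% and 46.5% in fl3, and the groups overlapped. No p is given for shares, since they are computed over genes chosen with earlier results known.

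The order of the small subunits changed with these shares. The ratio of RNRS1 to RNRS3 FPKM was 1.295, 1.09 and 1.03 in the WT libraries and 0.765, 0.755 and 0.848 in the fl3 libraries. RNRS1 was thus above RNRS3 in every WT library and below it in every fl3 library. The gap within WT was widest in WT replicate 1. RNRS1 exceeded RNRS2 by ratios of 26.1, 28.2 and 20.0 in WT and of 1.78, 1.91 and 1.97 in fl3. RNRS2 also crossed RNRL2: the ratio of RNRS2 to RNRL2 was between 0.212 and 0.293 in WT and between 1.92 and 2.44 in fl3. The order of mean FPKM was RNRS1, RNRS3, RNRL2, RNRS2, RNRL1 in WT and RNRS3, RNRS1, RNRS2, RNRL2, RNRL1 in fl3. Every pair of neighbours in either order had ranges over the 3 libraries that did not overlap.

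**Figure D3:**
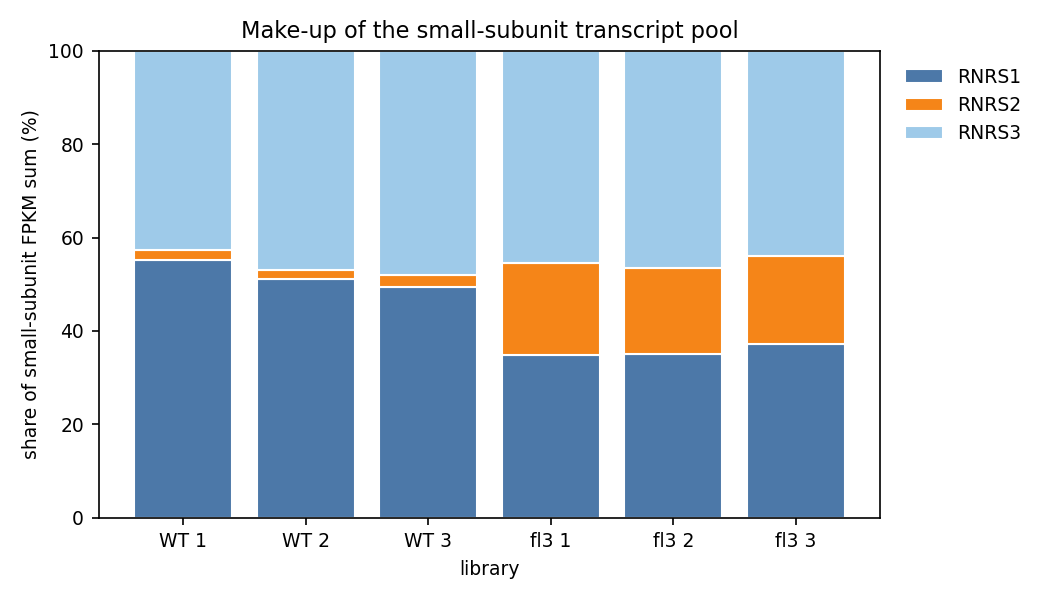
Share of RNRS1, RNRS2 and RNRS3 in the small-subunit FPKM sum of each library, in percent, as stacked bars from 0. The RNRS2 band goes from 1.82% to 2.47% in WT to 18.4% to 19.6% in fl3, the RNRS1 band shrinks, and the RNRS3 band keeps a similar height.

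The gain of RNRS2 was smaller than the losses of the other small subunits. RNRS2 gained 20.2 FPKM in the mean, and RNRS1 and RNRS3 together lost 50.6 FPKM, so the gain came to 39.9% of that loss. The small-subunit sum was 159.6, 149.96 and 154.4 FPKM in the WT libraries and 113, 130.9 and 129 FPKM in the fl3 libraries, lower in every fl3 library than in any WT library. The large-subunit sum was between 13.003 and 14.3 FPKM in WT and between 11.9 and 13.1 FPKM in fl3, and the groups overlapped. In the tissue as a whole, fewer cells that express a gene and less RNA of it per cell cannot be told apart.

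Small-subunit transcripts outnumbered large-subunit transcripts per length in all 6 libraries. The ratio of their sums was 11.2, 11.5 and 11.6 in the WT libraries and 8.67, 10.98 and 10.8 in the fl3 libraries. The fl3 values were all lower, but fl3 replicates 2 and 3 lay close to WT and the difference of means, 11.4 ± 0.221 against 10.2 ± 1.29 (SD, n = 3), was about the spread within fl3. With RNRL2 alone in the denominator, which leaves out the uncertain RNRL1, the ratio was between 11.7 and 13.3 in WT and between 9.79 and 12.9 in fl3, and the groups overlapped. Of the family sum, RNRS2 made up 1.96% ± 0.304 in WT and 17.2% ± 0.377 in fl3, and RNRL2 made up 7.52% ± 0.533 and 8.03% ± 1.05. The whole family summed to 168 ± 5.46 FPKM in WT and 137 ± 8.90 FPKM in fl3 (SD, n = 3), with no overlap; the difference was -31.7 FPKM as deposited and -49.1 FPKM under median-of-ratios scaling.

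Neither of the 2 other deoxynucleotide genes described here passed the test. The nucleoside diphosphate kinase ndpk1 (GRMZM2G178576), which makes triphosphates from diphosphates, stood at 61.8 ± 1.54 FPKM in the WT libraries and 55.1 ± 5.94 FPKM in the fl3 libraries. The gene with the symbol tk1 (GRMZM2G048821) had 5.83 ± 0.710 and 6.37 ± 1.03 FPKM (SD, n = 3). The limma adjusted p was 0.085 and 0.456, and the 95% intervals ran from -0.35 to 0.01 and from -0.17 to 0.38 in log2 units. Under median-of-ratios scaling ndpk1 did fall, with a log2 fold change of -0.33. The level of ndpk1 lay between those of RNRL2 and RNRS1 in WT.

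Small redox proteins pass electrons to ribonucleotide reductase in many organisms, and which of them serve it in maize endosperm is not known from these data. Of 5 measured thioredoxin, glutaredoxin and glutathione reductase genes 3 rose and 2 fell, against 43.5% and 23.8% of all tested genes. The glutaredoxin gene grx1 (GRMZM2G150295) rose from a mean of 46.8 ± 0.327 FPKM in WT to 104 ± 8.18 FPKM (SD, n = 3), a log2 fold change of 1.13 (limma adjusted p = 1.75e-06). The h-type thioredoxin gene trh2 (GRMZM2G144653) rose from 109 ± 12.4 to 190 ± 13.5 FPKM, while trxh1 (GRMZM2G424053) and trh1 (GRMZM2G079089) fell, by 0.49 and 0.48 on the log2 scale. The glutathione reductase gene gsr1 (GRMZM2G172322) rose by a log2 fold change of 0.38. The m-type thioredoxin gene trm1 (GRMZM2G358009) was listed at 0 in all 6 libraries. Like the small subunits, this group held members going each way, with the same counts under each scaling tried. The shares of all tested genes that rose and fell did change with the scaling.

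Retinoblastoma-related proteins and the E2F-DP factors they bind control S-phase genes in plants, and ribonucleotide reductase genes of tobacco carry E2F sites in their promoters. RBR1 (GRMZM2G003043) fell from 15.5 ± 0.641 to 12.3 ± 0.834 FPKM, and rbr3 (GRMZM2G033828) rose from 9.87 ± 0.452 to 14.0 ± 0.517 FPKM (SD, n = 3; limma adjusted p = 0.00367 and 0.000265). RBR2 (GRMZM2G153150) had 5.32 ± 0.559 and 5.94 ± 0.840 FPKM and did not pass (limma adjusted p = 0.309). The genes with the symbols DP2 (GRMZM2G111510) and DP1 (GRMZM2G152757), whose function the symbol alone does not settle, rose by log2 fold changes of 0.71 and 0.31. Under median-of-ratios scaling the rise of DP1 did not pass (0.15, limma adjusted p = 0.0797). Of these 5 genes 3 rose and 1 fell with values as deposited, against 43.5% and 23.8% of all tested genes. The symbol search returned no E2F gene, and the risen genes were rbr3, DP2 and DP1.

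The 11 DNA replication genes, which include no DNA polymerase, held 3 members called higher, 4 called lower and 4 not past the threshold. Among all tested genes 43.5% were called higher and 23.8% lower, and 7 of 11 called is near the 67.3% of the background. The list had a median log2 fold change of 0.11 against 0.14 for all tested genes. Under median-of-ratios scaling 2 rose and 5 fell, and the median was -0.05. Among all 17272 tested genes 5841 rose and 5758 fell under that scaling, with a median of 0.002. The origin recognition gene orc1 (GRMZM2G455243) rose by 0.54 and the flap endonuclease FEN-1 (GRMZM2G121262) by 0.44 on the log2 scale, while the topoisomerase Top1 (GRMZM2G092451) and orc3 (GRMZM2G381822) fell by 0.53 and 0.39. The sliding-clamp gene PCNA (GRMZM2G030523), named here for its known role after its values had been seen, stood at 64.6 ± 8.33 FPKM in the WT libraries against 69.7 ± 3.92 in the fl3 libraries (limma adjusted p = 0.3). None of these genes had a change near that of RNRS2. Of 8 core histone genes, which supply chromatin in S phase, 2 rose, 3 fell and 3 did not pass, again near the 67.3% called among all tested genes, with the same counts under each scaling. His2b5 (GRMZM2G342515) and his2b2 (GRMZM2G119071) had log2 fold changes of 0.64 and 0.53, and an H4 gene (GRMZM2G084195) and histone2b1 (GRMZM2G071959) of -0.51 and -0.50.

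Of 10 cyclins and cell-cycle kinases 8 rose, 1 fell and 1 did not pass, against 43.5% of all tested genes that rose and 23.8% that fell, with a median log2 fold change of 0.96. The cyclin genes cyclin4 (GRMZM2G310115), cyc3 (GRMZM2G073671), cyc1 (GRMZM2G034647) and cyclin8 (GRMZM2G138886) had log2 fold changes from 1.31 to 1.402, each smaller than the 2.52 of RNRS2. The kinase gene wee1 (GRMZM5G878541), which restrains entry into mitosis and was chosen after its values were seen, fell by 0.97 on the log2 scale, a fall of about the size of that of RNRS1. The count of risen members was 7 under quantile normalization and 8 under the other scalings, and 2 members fell under each of those scalings. Among all tested genes 5597 rose and 5905 fell under quantile normalization, and 5841 rose and 5758 fell under median-of-ratios scaling.

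**Figure D4:**
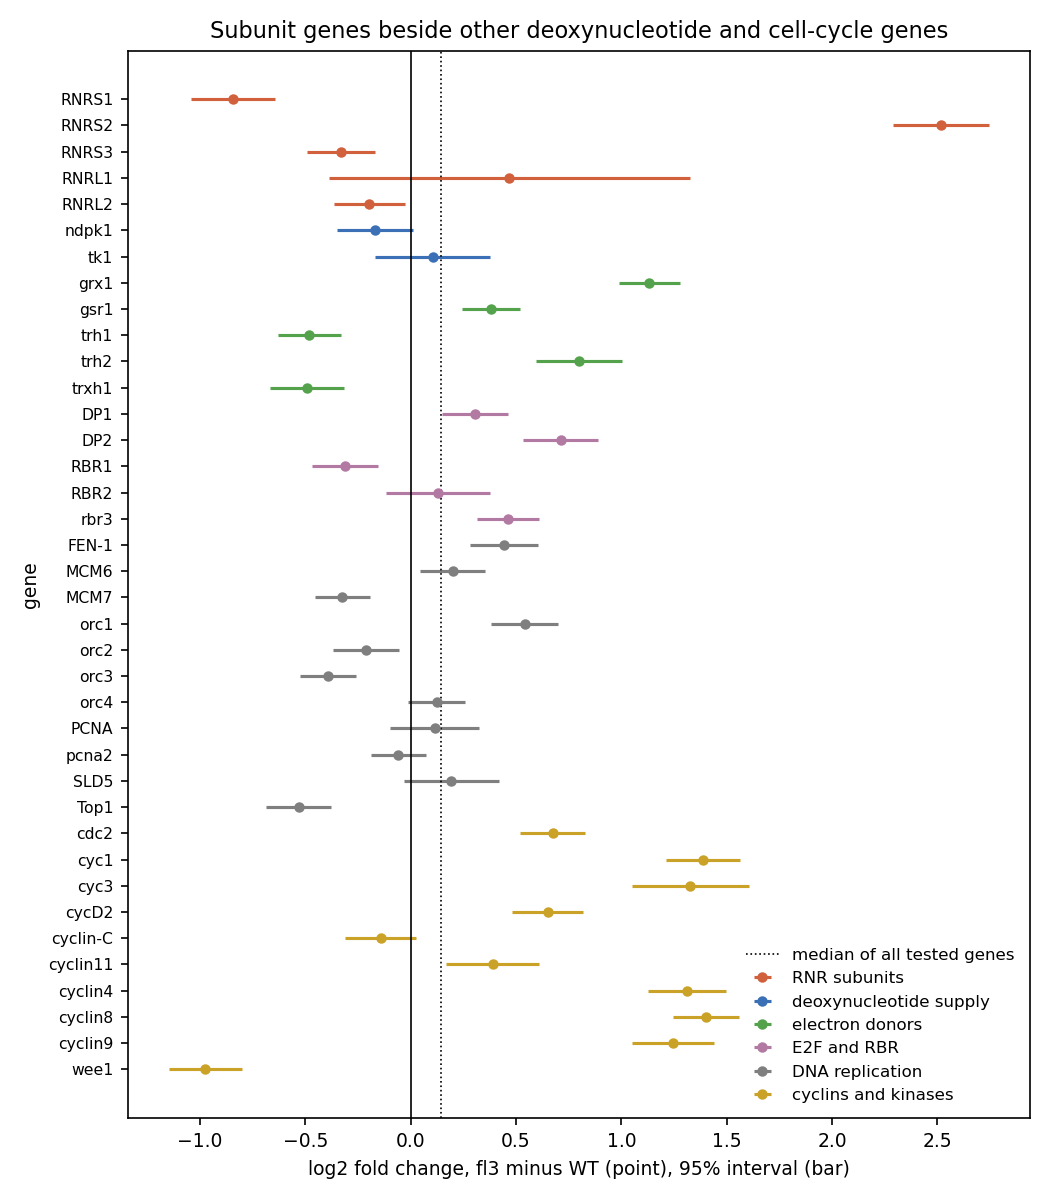
Log2 fold change (fl3 minus WT) with its 95% interval for the subunit genes and the tested members of 5 gene lists, colored by list; the solid line marks 0 and the dotted line the median of all tested genes, 0.14. RNRS2 at 2.52 lies to the right of every other gene drawn, and RNRS1 at -0.84 and wee1 at -0.97 lie farthest to the left.

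Likeness of pattern was measured as the root mean square difference over the 6 libraries in log2(FPKM + 1), each gene centred on its WT mean, among 1679 named tested genes. The genes closest to RNRS2 were CBL5 (GRMZM2G041729), dhar3 (GRMZM2G035502) and yuc (GRMZM2G091819), at differences of 0.124, 0.148 and 0.157. Their log2 fold changes of 2.62, 2.47 and 2.54 were near the 2.52 of RNRS2, from different levels. The dehydroascorbate reductase gene dhar3 went from 30.5 ± 1.67 to 173 ± 12.5 FPKM, and CBL5 from a mean of 0.023 to 5.29 FPKM. CBL5 was nearly absent in WT, so the added 1 compresses its log2 fold change. Its ratio of mean FPKM was far above the 7.11 of RNRS2. The closest to RNRS1 were BSD6 (GRMZM2G167207), chiB (GRMZM2G005633) and the aldolase gene ald1 (GRMZM2G057823), at differences of 0.0529, 0.062 and 0.0621. For RNRS3 they were ss1 (GRMZM2G129451), WTF1 (GRMZM2G403797) and rfz1 (GRMZM2G084812), at 0.0415 to 0.0586. For RNRL2 they were Ca-5 (GRMZM2G111138), cks (GRMZM2G119256) and bHLH129 (GRMZM5G856837), at 0.0227 to 0.0342. With 2 genotypes of 3 libraries, this measure is set mostly by the fold change.

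In the gene order of the reference assembly, RNRS1 and RNRL1 lie on chromosome 9, RNRS2 and RNRL2 on chromosome 6 and RNRS3 on chromosome 2. Neighbours were taken among tested genes matched to that assembly, so tested genes without a match were passed over. The 5 such genes on each side of RNRS2 had log2 fold changes from -0.50 to 0.93, with a median of 0.12. Of these 4 rose, 2 fell and 4 did not pass, near the 67.3% called among all tested genes. None of the 10 neighbours reached the 2.52 of RNRS2, but neither did most tested genes, since only 0.701% of them exceeded it. The neighbours of RNRS1 ran from -0.64 to 0.90, so none fell as far as RNRS1, below which 5.58% of all tested genes lay. The neighbours of RNRS3 and RNRL2 ran from -0.82 to 1.96 and from -1.05 to 1.29. Those of RNRL1, which did not pass, ran from -0.81 to 0.36. No local pattern is read from these ranges.

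The FPKM sums of the libraries were 465741 to 480602, a total largely set by the unit itself, and sequencing depth is unknown. Transcripts of the floury3 gene itself (GRMZM2G006585) stood at 2100.02 to 2427 FPKM in WT and 3084 to 3214 FPKM in fl3, which does not check the labels, since the labels do not say that the mutation alters the level. The marker counts that follow stand against 43.5% of all tested genes that rose and 23.8% that fell. Endosperm identity was clear in both genotypes: 34 starchy endosperm genes, mostly zein storage proteins, summed to 37078 to 45917 FPKM in WT and 13695 to 19103 FPKM in fl3, and 29 of 31 tested fell. Of genes marking the embryo-surrounding region, a zone of endosperm beside the embryo, 5 of 5 rose. Their sum went from 141 to 179 FPKM in WT to 471 to 612 FPKM in fl3. Aleurone markers summed to 217 to 235 and 292 to 304 FPKM, with 2 of 5 rising. Embryo markers summed to 381 to 404 and 394 to 457 FPKM, 3 of 6 tested rose and 1 fell, and 5 of the 23 listed were at 0 in every library. Basal transfer layer markers summed to 4125 to 5630 and 4074 to 7450 FPKM, with 3 of 14 tested rising and 1 falling. Of 18 green maternal tissue genes 2 were tested, 1 rose and 1 fell, and the sum was 118.5 to 120.1 FPKM in WT and 83.4 to 96.3 FPKM in fl3. In WT 1 gene of that list alone averaged 114 FPKM, so this sum mostly follows 1 gene. The part of these cell types in the subunit values was not tested.

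**Figure D5:**
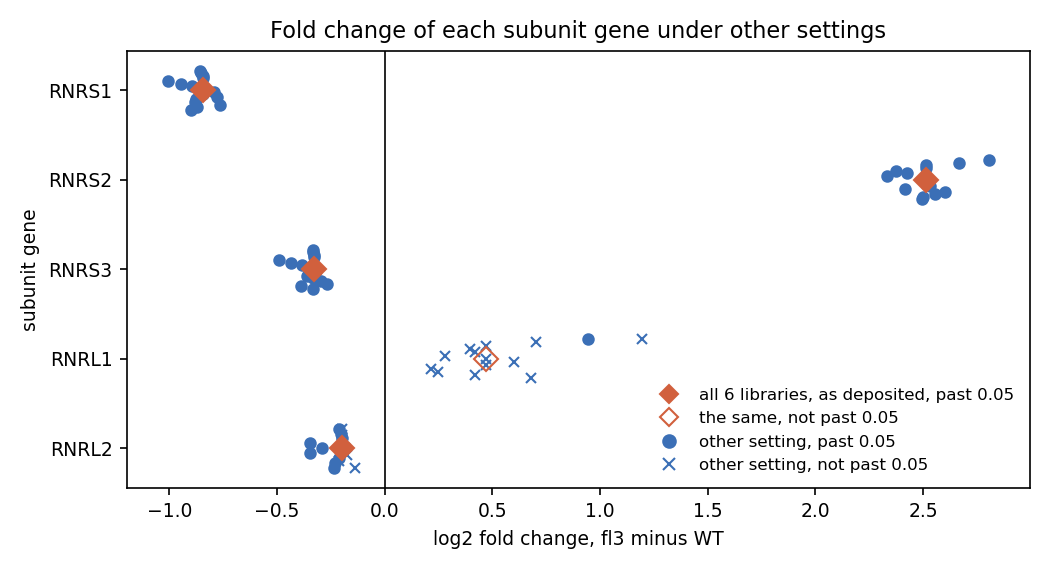
Log2 fold change of each subunit gene (fl3 minus WT) under every setting tried; diamonds mark all 6 libraries with values as deposited, blue circles other settings past an adjusted p of 0.05, and crosses settings that did not pass. RNRS2 stays between 2.33 and 2.80 and RNRS1 between -1.01 and -0.76, all past the threshold, while RNRL2 has crosses among its settings and RNRL1 passes in the fit without WT replicate 1 and without the filter, where it is 0.94.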

How the data were processed

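The authors deposited 1 table of FPKM values for each of 6 libraries. FastQC, TopHat, Bowtie2 and the build B73 RefGen_v3 are named, without their roles, per the submitters' processing notes. The FPKM tool, the annotation, the strand setting and the handling of reads shared by similar genes were not given in the sources used here, so reads split between subunit genes are uncertain. Whole reads could not be recovered: among genes under 0.2 FPKM, at most 8.79% shared the most frequent ratio between WT replicate 1 and another library, so depth is unknown and no counting error is given.

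Names and chromosomes came from an NCBI RefSeq table of Zm-B73-REFERENCE-NAM-5.0, another assembly, matched by identifier or synonym (18906 of 39448 matched); none of its coordinates are given. No sequence is printed.

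Genotype was the only term in a limma 3.58.1 fit (R 4.3.3; lmFit, eBayes with trend) of log2(FPKM + 1). Folds are ratios of mean FPKM, and log2 fold changes understate those of low genes. The fit was also run on simulated data in which few genes changed, unlike these data, so that run does not assess the calls given here. Tables and plots used Python 3.11.15, pandas 2.3.3 and matplotlib 3.10.9. Subunit genes and lists were chosen with earlier results of these data known. The lists are symbol searches; symbols with another meaning (such as GRF, grp, krp, cks, rth3, linker histones, ae1, PPCK) were left out by reading them after the files were opened. Named genes are the subunits, the 3 named genes of most similar pattern for each called subunit, the deoxynucleotide and E2F-list genes (1 is not reported here), and up to 4 called genes of largest change per other list. Alternatives covered the pseudocount, filter, scaling, variance model, library weights, a replicate block and leaving out each library.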

Additional observations from a re-analysis of the deposited data

How the results depend on the processing

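RNRS1, RNRS2 and RNRS3 kept their direction and stayed past the threshold under all 16 alternatives, with log2 fold changes from -1.01 to -0.76, from 2.33 to 2.80 and from -0.49 to -0.27. The fall of RNRL2 did not pass without the filter, without the variance trend or with the replicate block (log2 fold change -0.20 in each, limma adjusted p = 0.0514, 0.0512 and 0.0802); without 1 library at a time it ranged from -0.24 to -0.14. Same-numbered libraries showed no strong shared deviation (correlations of their deviations -0.153, 0.0716 and -0.0227). With 3 libraries per genotype, this cannot tell whether they were handled together. The replicate block changed no other subunit call and left 11137 genes called against 11626. RNRL1 did not pass under the 13 alternatives chosen at the start that gave it a value, from 0.22 to 1.19; its mean is below 1 FPKM without WT replicate 1 or fl3 replicate 3 and below the filter of 5 FPKM, so it has no value there. Without WT replicate 1 and the filter together, an alternative added after seeing the data, it passed at 0.94. A filter of 5 FPKM left 7675 genes called because fewer were tested. The family FPKM sum differed by -31.7 FPKM as deposited and by -49.1 FPKM under median-of-ratios scaling, which lowers fl3 values relative to WT. Of the deoxynucleotide genes 0 fell as deposited (limma; 0 of 2 at an unadjusted p under 0.05), 1 fell under median-of-ratios, upper-quartile and quantile scaling, and between 0 and 1 without 1 library at a time. Cyclins and kinases that fell were 1 as deposited and 2 under those 3 scalings. More of all tested genes fell under them too: 4107 as deposited, and 5758, 5135 and 5905 under median-of-ratios, upper-quartile and quantile scaling. Shares were recomputed only under median-of-ratios scaling, which cannot change them, under quantile normalization and without 1 library at a time. In the last 2 kinds of setting they moved by less than their spread. The share of RNRS2 in the small-subunit sum was 16.4 to 17.1 percentage points higher in fl3. FPKM without depth gives no counting error, which limits RNRL1 most.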
